A study of Mus musculus with 374 samples.

Results

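The Bcl2 family decides whether a cell keeps its mitochondria intact or dies by apoptosis. Its survival members (*Bcl2*, *Bcl2l1*, *Mcl1* and the *Bcl2a1* genes) hold the effectors *Bax* and *Bak1* in check, and the effectors, once released, open the outer mitochondrial membrane. BH3-only members such as *Bcl2l11*, which encodes Bim, and *Bid* bind the survival proteins and set the effectors free. In blood, *Mcl1* is known as a survival gene of stem cells, lymphocytes and neutrophils, *Bcl2* of mature lymphocytes, *Bcl2l1* of red cell precursors and immature thymocytes, and *Bcl2l11* for the removal of lymphocytes that bind their own antigens.

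The 10 members listed were chosen by name: *Bcl2*, *Bcl2l1*, *Mcl1*, *Bcl2a1a*, *Bcl2a1b*, *Bcl2a1d*, *Bax*, *Bak1*, *Bcl2l11* and *Bid*. Of these, 8 have a row among the 19829 mouse genes of the count table, and *Bak1* and *Bid* were not analysed here. Single cells of 1 female C57BL/6 mouse, 10-13 weeks old and carrying no named allele or treatment, were index-sorted into the wells of 1 plate and measured by CEL-seq2, a method that reads the 3′ end of each transcript and counts molecules by unique molecular identifiers (UMIs). From the bone marrow came 95 wells of progenitor/stem cells (lineage-negative, Kit+ and Sca1+, called LSK), 44 of B lymphocytes (B220+, small by forward scatter), 96 of granulocytes (Mac1+ Gr1+) and 96 of erythroblasts (Ter119+ CD44+, of middle to large forward scatter). The thymus of the same mouse gave 43 wells of T lymphocytes (CD3+, small by forward scatter), so the organ and the cell type cannot be told apart for them. With 1 mouse, each population is 1 sample. No test between populations was possible, and every interval below is a 95% interval for counting error only.

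The summed UMIs on mouse genes were 834812 in LSK cells, 135808 in B lymphocytes, 200396 in T lymphocytes, 403506 in granulocytes and 666728 in erythroblasts, with medians of 3028.5 (B lymphocytes) to 7959 (LSK) per well. A sum of 3 UMIs, taken as the floor of detection, was therefore worth a level of 3.59 (CPM, the count scaled to the same total of mouse-gene UMIs in each population) in LSK cells and 22.1 CPM in B lymphocytes. Each list of marker genes (among them CD3 chains and coreceptors for T lymphocytes and granule proteins for granulocytes) was highest in its own population. The same lists reached 0.985% to 11.8% of that level in the other populations, and their part in the members' levels was not tested. Within a well, *Cd79a* had a UMI in 6.25% of erythroblasts and *Cd3e* in 2.27% of B lymphocytes, where these genes should be absent, at median depths of 6113.5 and 3028.5 UMIs. *Kit* had a UMI in 13.5% of granulocytes, at a median depth of 3880 UMIs, and whether those cells expressed it was not tested. Among the B lymphocyte wells, A8 stood apart by its Gr1 fluorescence (15209, against at most 872 in the 42 wells other than A8 and B2) and held 519 UMIs on granulocyte markers and 0 on B lymphocyte markers. Well B2 stood apart by its CD3 fluorescence (7905, against at most 542), with 36 UMIs on B lymphocyte markers and 0 on T lymphocyte markers. Values for B lymphocytes are given with both wells and, where they rest on them, without.

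The members are kin through the BH3 region, the short helix by which one member docks into the groove of another. The stretches below are printed to show that region, and no alignment between the genes was run. They were not chosen as the part counted, since the method reads the 3′ end of each transcript. Each is 60 bases of coding sequence from GENCODE M21 (GRCm38, 5′ to 3′ on the strand of the gene), and the capitals mark the 6 codons that run from a leucine over any 3 residues to a glycine and an aspartate. The codon search was run on the reference and found 1 such place in each of these 5 genes.
Bcl2: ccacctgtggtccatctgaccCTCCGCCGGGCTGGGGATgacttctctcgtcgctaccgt
Bcl2l1: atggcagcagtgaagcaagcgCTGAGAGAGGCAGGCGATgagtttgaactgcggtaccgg
Mcl1: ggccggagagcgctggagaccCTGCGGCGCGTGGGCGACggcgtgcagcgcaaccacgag
Bax: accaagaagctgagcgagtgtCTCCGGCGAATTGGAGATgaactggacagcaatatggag
Bcl2l11: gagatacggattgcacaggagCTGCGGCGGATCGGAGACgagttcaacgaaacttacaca
The *Bcl2* (ENSMUSG00000057329) stretch lies in exon 1 of 2 at chr1:106712563-106712622 on the minus strand, and that of *Bcl2l1* (ENSMUSG00000007659) in exon 2 of 3 at chr2:152829685-152829744, also minus. The *Mcl1* (ENSMUSG00000038612) stretch lies in exon 1 of 3 at chr3:95659415-95659474 on the plus strand. The *Bax* (ENSMUSG00000003873) stretch lies in exon 3 of 6 at chr7:45465985-45466044 on the minus strand, and that of *Bcl2l11* (ENSMUSG00000027381) in exon 3 of 4 at chr2:128147129-128147188 on the plus strand. An exon of D630008O14Rik overlaps *Bcl2* on the opposite strand and was not analysed here.

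The *Bcl2a1* genes are near-copies of each other on chromosome 9, so their counts were also summed, and the next stretches show where they differ most. Of all windows of 60 coding bases, the first holds the most differing positions, 6 of the 12 over 516 bases. Its bases are printed, with capitals at the 6 positions where not all 3 copies have the same base. They lie in exon 1 of 2 of each gene.
Bcl2a1a: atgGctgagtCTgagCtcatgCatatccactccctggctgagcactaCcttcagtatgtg
Bcl2a1b: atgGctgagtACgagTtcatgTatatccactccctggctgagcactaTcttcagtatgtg
Bcl2a1d: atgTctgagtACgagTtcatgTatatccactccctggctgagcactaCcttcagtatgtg
These stretches are at chr9:88957051-88957110 (plus), chr9:89199360-89199419 (plus) and chr9:88731660-88731719 (minus). Over the 516 coding bases, *Bcl2a1a* and *Bcl2a1b* differ at 11 positions, *Bcl2a1a* and *Bcl2a1d* at 7, and *Bcl2a1b* and *Bcl2a1d* at 6. Of all 50-base stretches of the transcript, 67.7% in *Bcl2a1a*, 57.6% in *Bcl2a1b* and 79.5% in *Bcl2a1d* also occur in another copy, so how the UMIs divide among the 3 copies is uncertain. The gene IDs are ENSMUSG00000102037 (*Bcl2a1a*), ENSMUSG00000089929 (*Bcl2a1b*) and ENSMUSG00000099974 (*Bcl2a1d*).

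*Bcl2*, which encodes the founding survival protein of the family, had its highest level in thymic T lymphocytes and its lowest in erythroblasts. T lymphocytes held 76 UMIs, or 379 CPM (299 to 475), and LSK cells 119 UMIs, or 143 CPM (118 to 171). B lymphocytes held 10 UMIs (73.6 CPM, 35.3 to 135), granulocytes 13 (32.2 CPM, 17.2 to 55.1) and erythroblasts 4 (6.00 CPM, 1.63 to 15.4). The level in T lymphocytes was 2.66-fold that in LSK cells (1.97 to 3.58), and the level in LSK cells was 1.94-fold that in B lymphocytes (1.02 to 4.14). B lymphocytes and granulocytes could not be separated (2.29-fold, 0.897 to 5.64). By plate row, *Bcl2* was 329 and 421 CPM in the 2 T lymphocyte rows and 100.4 to 176 CPM in the 4 LSK rows, with no overlap between these populations. Each row held wells of 1 population of the same mouse, so row and population cannot be told apart. The share of all genes without such overlap was not computed, and rows are given only as a description.

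Most LSK and T lymphocyte wells showed *Bcl2* at least once. A UMI was found in 60 of 95 LSK wells (63.2%, 52.6 to 72.8) and in 28 of 43 T lymphocyte wells (65.1%, 49.1 to 79.0), with a lowest, median and highest count of 0, 1 and 7 in LSK cells and of 0, 1 and 12 in T lymphocytes. LSK wells were sequenced deeper, and after thinning every well to 2000 UMIs (42 T lymphocyte and 95 LSK wells) the shares were 42.0% and 22.4%. *Bcl2* was found in 9 of 44 B lymphocyte wells (20.5%), 13 of 96 granulocyte wells (13.5%) and 4 of 96 erythroblast wells (4.17%), and no well of the last 2 populations held more than 1 UMI. The erythroblast share of *Bcl2* lies between those of *Cd3e* (2.08%) and *Cd79a* (6.25%) in the same wells. It is therefore given as a share only, and whether it reflects expression was not tested. The granulocyte share of *Bcl2* lies above those of *Cd79a* (1.04%) and *Cd3e* (0 of 96 wells) in the same wells. *Kit* was found in 16.7% of erythroblast and 13.5% of granulocyte wells, but whether these cells expressed it was not tested, so it sets no background. The part of free RNA in either share was not tested. The erythroblast level was 1.58% of that in T lymphocytes, inside the range in which foreign marker lists appeared.

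The *Bcl2* UMIs of T lymphocytes were unevenly spread over wells. Wells O21, O16, P6, O17 and P16 held 12, 8, 8, 7 and 6 UMIs, which is 41 of the 76, while 15 wells held none. The variance of the count per well was 3.96 times its mean, a ratio reached by 4.78% of the 1861 genes with at least 20 UMIs in T lymphocytes, where the median gene was at 1.36, and by 10.8% of the 585 genes with at least 50 UMIs, where the median was 1.65. In LSK cells the ratio was 1.78, also above the median gene. It was reached by 12.5% of 6780 genes with at least 20 UMIs there (median 1.22) and by 21.8% of 3281 with at least 50 (median 1.37). Without the 5 T lymphocyte wells, picked for their counts and so given only as a description, the level in T lymphocytes was 207 CPM, against 120 CPM in LSK cells without their own 5 highest wells. The fold of T lymphocytes over LSK cells stayed between 2.34 (without O21) and 2.78 (without O4) when each well was left out in turn.

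*Mcl1*, which encodes a short-lived survival protein, had its highest CPM in granulocytes and its lowest in erythroblasts, and was found in most wells of every population. Granulocytes held 214 UMIs (530 CPM, 462 to 606), B lymphocytes 63 (464 CPM, 356 to 594), T lymphocytes 78 (389 CPM, 308 to 486), LSK cells 162 (194 CPM, 165 to 226) and erythroblasts 92 (138 CPM, 111 to 169). Granulocytes were at 1.14 times B lymphocytes (0.860 to 1.54) and B at 1.19 times T lymphocytes (0.841 to 1.68), neither of which is separable in CPM, while granulocytes were at 1.36 times T lymphocytes (1.05 to 1.79). The log2 ratio of granulocytes over B lymphocytes, 0.19 in CPM, was 0.86 with TMM factors, 0.80 with DESeq2 size factors and 1.06 with scran size factors per well, so how far granulocytes stood above B lymphocytes depends on the scale. T lymphocytes were at 2.01 times LSK cells (1.51 to 2.64) and LSK cells at 1.41 times erythroblasts (1.08 to 1.84). The lowest rank of erythroblasts also depends on the scale. They were above LSK cells with TMM factors (1.29-fold), DESeq2 size factors (1.39-fold) and scran size factors (1.72-fold). No plate row of B lymphocytes, T lymphocytes or granulocytes (368 to 706 CPM) overlapped the LSK rows (171 to 220 CPM), and the erythroblast rows lay lowest (128 to 149 CPM). As for *Bcl2*, the rows are a description only, without the share over all genes.

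A *Mcl1* UMI was found in 81 of 95 LSK wells (85.3%), 31 of 44 B lymphocyte wells (70.5%), 32 of 43 T lymphocyte wells (74.4%), 74 of 96 granulocyte wells (77.1%) and 60 of 96 erythroblast wells (62.5%). The share was highest in LSK cells, whose wells were the deepest. Wells below 2000 UMIs drop out of the thinning, which left 33 B lymphocyte, 42 T lymphocyte, 86 granulocyte, 95 LSK and 95 erythroblast wells. Thinned to 2000 UMIs, the share was 60.4% in granulocytes, 58.7% in B lymphocytes, 52.1% in T lymphocytes, 33.4% in LSK cells and 24.1% in erythroblasts, the same order as the CPM. Thinning to a fixed total shares the scale of CPM, so this order is not a separate check of it. The highest count in a well was 11 in granulocytes (G20), 9 in both LSK cells and T lymphocytes, 7 in B lymphocytes and 4 in erythroblasts, with medians of 2 in granulocytes and 1 elsewhere. Without wells A8 and B2 the B lymphocyte level was 435 CPM (329 to 565).

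*Bcl2l1*, which encodes Bcl-xL, had its higher levels in B lymphocytes and erythroblasts, from few UMIs. B lymphocytes held 14 UMIs (103 CPM, 56.4 to 173), erythroblasts 33 (49.5 CPM, 34.1 to 69.5), T lymphocytes 6 (29.9 CPM, 11.0 to 65.2), granulocytes 10 (24.8 CPM, 11.9 to 45.6) and LSK cells 18 (21.6 CPM, 12.8 to 34.1). B lymphocytes exceeded erythroblasts 2.08-fold (1.03 to 4.00), and no other neighbours in the order could be separated. It was found in 12 of 44 B lymphocyte wells (27.3%) and 24 of 96 erythroblast wells (25.0%), against 16 of 95 LSK wells (16.8%), 9 of 96 granulocyte wells (9.38%) and 3 of 43 T lymphocyte wells (6.98%). The median well held 0 in every population, and the highest count was 2 in B lymphocytes, 5 in erythroblasts (F12), 4 in T lymphocytes (P10), 3 in LSK cells and 2 in granulocytes. In T lymphocytes, P10 therefore held 4 of the 6 UMIs.

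The excess of *Bcl2l1* in B lymphocytes over erythroblasts rests on the scale. Counted per UMI of the ERCC spike-in RNA, which was added to the wells, erythroblasts were the higher of the 2 populations (log2 of B lymphocytes over erythroblasts -0.15, against 1.06 in CPM), and the same held with scran size factors per well (-0.97). The scran value leans on erythroblast well F12, which held 5 UMIs at a size factor of 0.138. Leaving out any 1 of the B lymphocyte wells B3, B4, B15, A9, B11, B22, A22, A18, B21 and B19 also took the CPM fold below 2, to 1.83 without B3. Both populations lay above LSK cells on every scale tried. *Bcl2l1* was 4.78-fold (2.20 to 10.2) higher in B lymphocytes and 2.30-fold (1.26 to 4.33) in erythroblasts, with ranges of 1.91 to 6.00 and of 2.06 to 7.42 over CPM and the 9 other scalings and well choices. Without F12 the erythroblast value in CPM was 1.96, and the upper end of 7.42 is the scran value, which leans on F12.

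The *Bcl2a1* genes, which encode the survival protein A1 known from activated lymphocytes and neutrophils, were near the limit of detection. Summed over the 3 copies, T lymphocytes held 7 UMIs (34.9 CPM, 14.0 to 72.0), granulocytes 7 (17.3 CPM, 6.97 to 35.7), B lymphocytes 1 and erythroblasts 1. LSK cells held 0 of 834812 UMIs, where the floor of 3 UMIs is 3.59 CPM and the upper limit of the 95% Poisson interval is 4.42 CPM. Gm29094, whose exons overlap *Bcl2a1b* on the same strand, held 4 UMIs in LSK cells, 1 in T lymphocytes and 1 in granulocytes. *Bcl2a1a* held 4 UMIs in granulocytes and 1 in T lymphocytes, *Bcl2a1b* 2 and 4, and *Bcl2a1d* 1 and 2. Single wells supplied most of these molecules: O7 held 5 of the 7 in T lymphocytes and G20 held 5 of the 7 in granulocytes. No 2 neighbouring populations with a UMI could be separated, and none of the 3 genes reached the 30 UMIs set for the calls below.

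*Bax*, the effector that was measured, showed no separable neighbours in its order. T lymphocytes held 9 UMIs (44.9 CPM, 20.5 to 85.3), LSK cells 35 (41.9 CPM, 29.2 to 58.3), B lymphocytes 5 (36.8 CPM, 12.0 to 85.9), granulocytes 11 (27.3 CPM, 13.6 to 48.8) and erythroblasts 14 (21.0 CPM, 11.5 to 35.2). In CPM, the interval of a ratio excluded 1 only between LSK cells and erythroblasts, where erythroblasts were at 0.501 of the LSK level (0.249 to 0.955). That log2 ratio of -1.00 lies near the median of all tested genes in erythroblasts, -0.88. With TMM factors the ratio was 0.910 and with DESeq2 size factors 0.980, so the difference rests on the scale. The other ratios to LSK cells were 0.878 (0.269 to 2.25) in B lymphocytes, 1.07 (0.453 to 2.27) in T lymphocytes and 0.650 (0.298 to 1.31) in granulocytes, so differences of about this size were not detectable at this depth. A UMI was found in 29 of 95 LSK wells (30.5%), 8 of 43 T lymphocyte wells (18.6%), 5 of 44 B lymphocyte wells (11.4%), 10 of 96 erythroblast wells (10.4%) and 9 of 96 granulocyte wells (9.38%), with at most 4 UMIs in a well. An exon of Gm45808 overlaps *Bax* on the same strand, and that gene was not analysed here.

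*Bcl2l11*, the BH3-only gene that encodes Bim, had its highest level in T lymphocytes. T lymphocytes held 20 UMIs (99.8 CPM, 61.0 to 154), B lymphocytes 5 (36.8 CPM, 12.0 to 85.9), erythroblasts 20 (30.0 CPM, 18.3 to 46.3), granulocytes 11 (27.3 CPM, 13.6 to 48.8) and LSK cells 22 (26.4 CPM, 16.5 to 39.9). The T lymphocyte level was 3.79-fold that of LSK cells (1.96 to 7.27), and 2.71-fold that of B lymphocytes (0.987 to 9.24), an interval that includes 1. No neighbours among the other populations could be separated. These 20 UMIs came from 7 of 43 wells (16.3%), against 17 of 96 erythroblast wells (17.7%) and 20 of 95 LSK wells (21.1%), which were deeper. Thinned to 2000 UMIs, the shares were 11.6% in T lymphocytes, 4.69% in erythroblasts and 5.21% in LSK cells.

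Few T lymphocytes thus carried the level. Wells O7, O22 and P10 held 6, 5 and 4 *Bcl2l11* UMIs, 15 of the 20, and the variance per well was 3.82 times the mean, a ratio reached by 5.16% of the 1861 genes counted above. In LSK cells and erythroblasts, with as many UMIs, the ratio was 0.960 and 1.10 and no well held more than 2. Without O7, O22 and P10 the T lymphocyte level was 26.8 CPM, near the 26.4 CPM of LSK cells, though wells left out for their counts lower any sum. Without O7 alone the fold over B lymphocytes fell to 1.94, and without the B lymphocyte well B14, which held 3 of the 5 UMIs there, it was 6.69. O7 and O22 held 0 *Bcl2* UMIs and P10 held 3, and none of the 5 wells rich in *Bcl2* held a *Bcl2l11* UMI. Both sets of wells were picked for their counts and *Bcl2l11* was found in only 7 of 43 wells, so exclusion between the genes was not tested. O7 also held 4 *Mcl1* and 5 *Bcl2a1* UMIs at an ordinary depth of 4232.

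**Figure D1:**
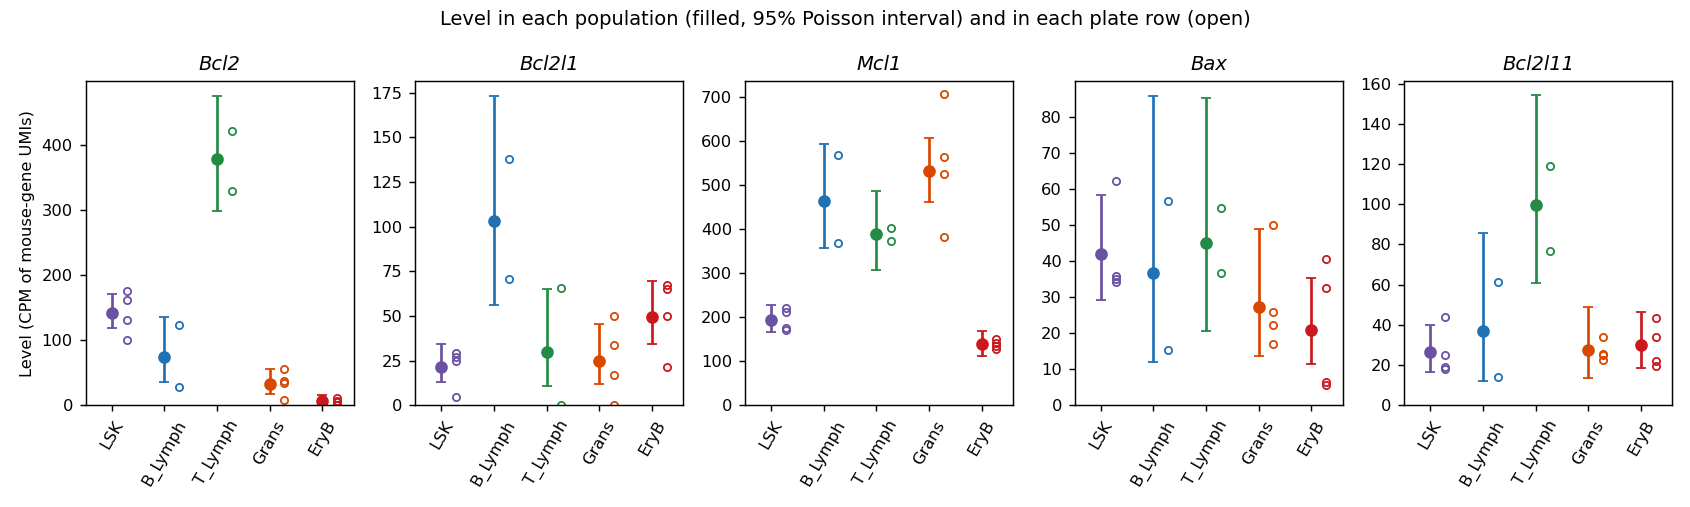
Level of 5 members in each population, in CPM of mouse-gene UMIs on linear axes that start at 0. Filled points are the population sums with 95% exact Poisson intervals and open points are single plate rows, and *Bcl2* stands highest in T lymphocytes at 379 CPM while *Mcl1* is at 389 to 530 CPM in T lymphocytes, B lymphocytes and granulocytes.

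**Figure D2:**
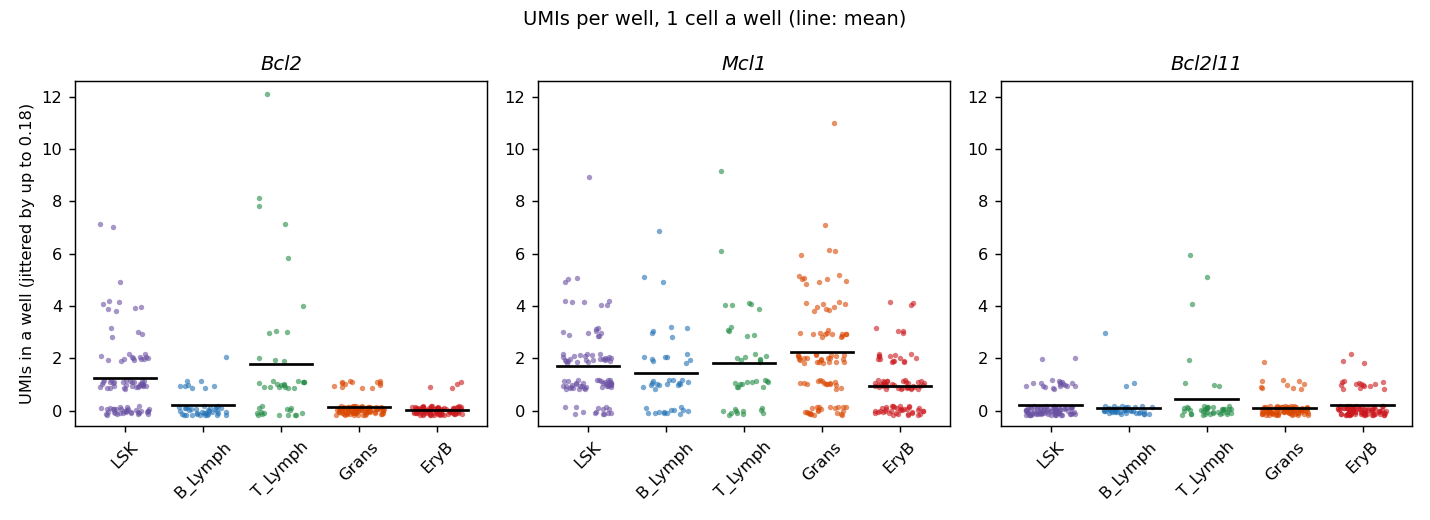
UMIs of *Bcl2*, *Mcl1* and *Bcl2l11* in each well (1 cell), by population, with the mean as a line and points jittered. Most points for *Bcl2l11* lie at 0, with T lymphocyte wells at 6, 5 and 4, and *Bcl2* reaches 12 UMIs in 1 T lymphocyte well.

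Which survival gene supplied the UMIs differed between populations, and since these shares are taken within a population they do not depend on how populations are scaled. Over the 6 survival members, *Bcl2* made up 45.5% (37.8 to 53.4) of 167 UMIs in T lymphocytes and 39.8% (34.2 to 45.6) of 299 in LSK cells. It made up 11.4% (5.59 to 19.9) of 88 in B lymphocytes, 5.33% (2.87 to 8.94) of 244 in granulocytes and 3.08% (0.845 to 7.69) of 130 in erythroblasts. The first 2 populations do not overlap the last 3 in these intervals. *Bcl2l1* made up 25.4% (18.2 to 33.8) in erythroblasts and 15.9% (8.98 to 25.2) in B lymphocytes, against 6.02% (3.61 to 9.35) in LSK cells, 4.10% (1.98 to 7.41) in granulocytes and 3.59% (1.33 to 7.66) in T lymphocytes. *Mcl1* made up 87.7% (82.9 to 91.5) in granulocytes, where it left the least room for the others, and 46.7% (39.0 to 54.6) in T lymphocytes.

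Put as ratios, 0.974 *Bcl2* UMIs (0.701 to 1.35) were counted per *Mcl1* UMI in T lymphocytes and 0.735 (0.575 to 0.936) in LSK cells. The same ratio was 0.159 (0.0726 to 0.312) in B lymphocytes, 0.0607 (0.0318 to 0.106) in granulocytes and 0.0435 (0.0116 to 0.115) in erythroblasts. The ratio thus separated T lymphocytes and LSK cells from the others, and marrow B lymphocytes from thymic T lymphocytes. Per *Mcl1* UMI, *Bcl2l1* was counted 0.359 times (0.233 to 0.539) in erythroblasts and 0.0467 times (0.0221 to 0.0876) in granulocytes. *Bcl2l11* was counted 0.256 times (0.149 to 0.423) in T lymphocytes, 0.217 (0.127 to 0.355) in erythroblasts and 0.0514 (0.0253 to 0.0938) in granulocytes. A ratio compares the same 2 genes across populations and says nothing of how their absolute levels compare. At least 1 UMI of a survival member was found in 93 of 95 LSK, 39 of 44 B lymphocyte, 37 of 43 T lymphocyte, 75 of 96 granulocyte and 74 of 96 erythroblast wells.

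**Figure D3:**
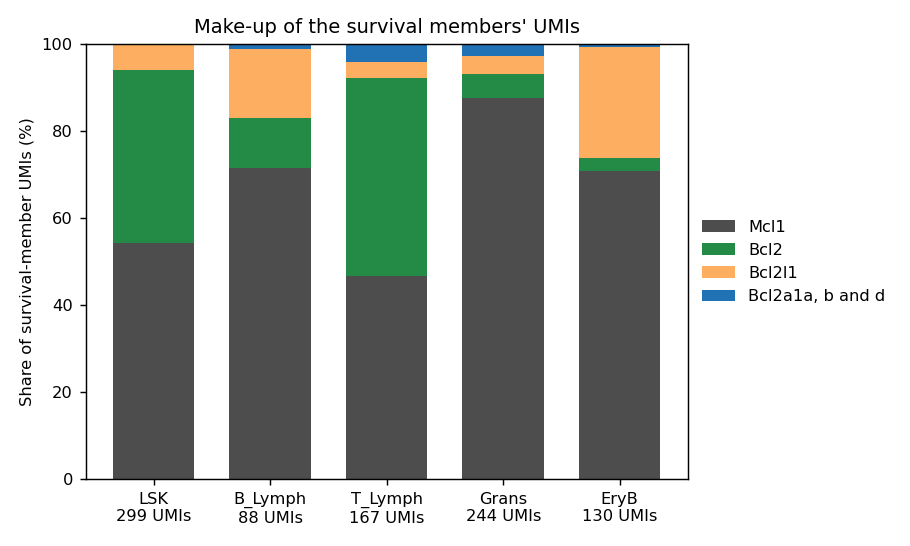
Share of each survival member in the UMIs of all survival members, in percent from 0 to 100, for each population with its number of UMIs below. The *Bcl2* segment is large in LSK cells (39.8%) and T lymphocytes (45.5%), the *Bcl2l1* segment in erythroblasts (25.4%), and *Mcl1* fills 87.7% of the granulocyte bar.

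Against LSK cells, the least mature cells sorted, a member was called higher or lower where it had at least 30 UMIs in the 2 sums and differed at least 2-fold. These calls are size rules on single samples and carry no p. In B lymphocytes 2 of 4 members with enough UMIs were called higher, *Bcl2l1* (4.78-fold) and *Mcl1* (2.39-fold, 1.76 to 3.22), where 6.83% of all 5753 genes were, and none lower, where 24.5% of genes were. *Bcl2l1* had 18 UMIs in LSK cells and reached 30 only through its 14 in B lymphocytes. At the LSK level it would have had too few to be tested, so its call is a description only. *Bcl2* was at 0.517 (0.241 to 0.984) of the LSK level, and at 0.436 without wells A8 and B2, which passes the rule. It also passed it without any 1 of wells B2, B6, B10, B16, B7, B22, A18, A6 and B17. In T lymphocytes 3 of 4 were called higher, *Bcl2*, *Bcl2l11* and *Mcl1*, where 8.61% of 6053 genes were, and none lower, against 21.4%. *Bcl2l11*, with 22 UMIs in LSK cells and 20 in T lymphocytes, would likewise have gone untested at the LSK level. The *Mcl1* value of 2.01 lies at the threshold, and leaving out any 1 of 52 wells took it below, to 1.85 without P6.

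In granulocytes, 1 of 4 members was called higher, *Mcl1* at 2.73-fold (2.22 to 3.37), where 12% of 6349 genes were. *Bcl2* was called lower at 0.226 of the LSK level (0.117 to 0.401), where 46.1% of genes were. In erythroblasts, 1 of 5 was called higher, *Bcl2l1*, where 12.8% of 6670 genes were, and *Bcl2* was called lower at 0.0421 (0.0113 to 0.111), where 46.5% of genes were. *Bax* was just short of the lower call there, which it met when any 1 of 76 wells was left out (0.398 without D14). Lower calls were common over all genes in both populations. Over genes with at least 30 UMIs in the 2 sums, the median log2 ratio to LSK cells was 0.53 for the members and -0.47 for all genes in B lymphocytes, 1.21 and -0.24 in T lymphocytes, -0.29 and -0.87 in granulocytes, and -0.49 and -0.88 in erythroblasts. The member median of B lymphocytes includes *Bcl2l1* and that of T lymphocytes *Bcl2l11*, each of which passed the filter only through that population.

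The balance of these calls depends on the scale. With TMM factors of edgeR, 21.9% of genes were higher and 26.5% lower in granulocytes, and 24.1% and 29.1% in erythroblasts. With DESeq2 size factors, 11.6% were higher and 13% lower in B lymphocytes and 11.5% and 17.6% in T lymphocytes, and per ERCC UMI 1.7% were higher and 79.9% lower in B lymphocytes. Over the CPM and the 9 other scalings and well choices, *Bcl2* stayed above LSK cells in T lymphocytes (1.43 to 3.03) and below in granulocytes (0.116 to 0.556) and erythroblasts (0.0389 to 0.143). *Bcl2l11* stayed above in T lymphocytes (2.04 to 4.28) and *Mcl1* in granulocytes (1.41 to 6.04). *Mcl1* in B lymphocytes was at 0.955 and in T lymphocytes at 1.08 of LSK per ERCC UMI, and its direction in erythroblasts turned between 0.657 (ERCC) and 1.72 (scran). In erythroblasts *Mcl1* was above LSK cells with TMM factors (1.29) and DESeq2 size factors (1.39) as well. *Bcl2* in B lymphocytes also turned, from 0.206 (ERCC) to 1.30 (scran), and *Bax* had no ratio to LSK cells that kept 1 direction except in erythroblasts (0.407 to 0.980).

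**Figure D4:**
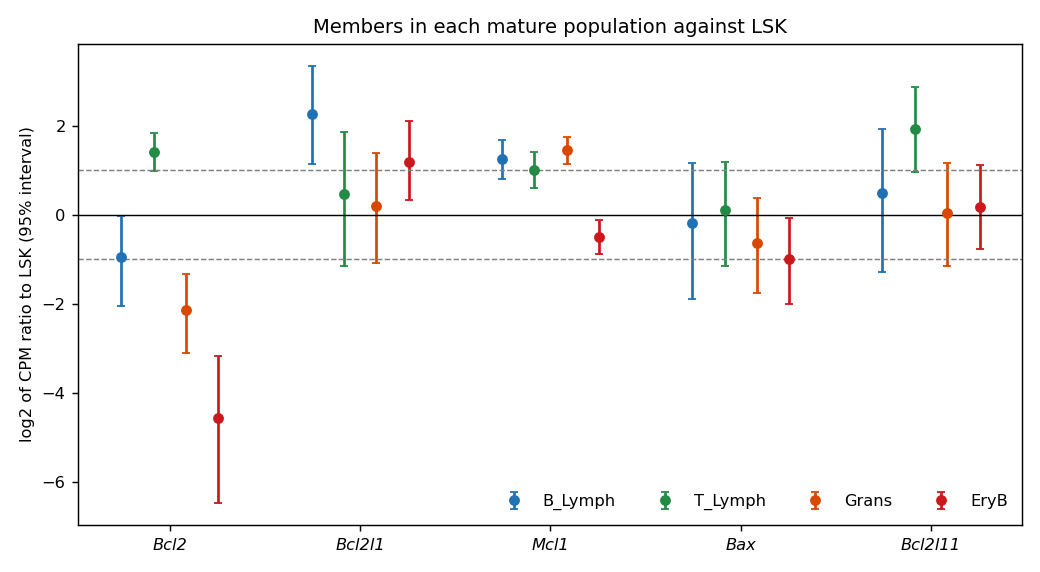
Log2 of the CPM ratio to LSK cells for 5 members in the 4 mature populations, with 95% exact intervals for counting error. Dashed lines mark 2-fold, and *Bcl2* spans the widest range, from 1.41 in T lymphocytes to -4.57 in erythroblasts.

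As a second call, the highest population was compared with the next over all 5, with at least 30 UMIs in the 5 sums and a fold of at least 2. Of 8153 genes, 22.4% were called. Of the 5 members with enough UMIs, 3 were called: *Bcl2* in T lymphocytes (2.66-fold), *Bcl2l11* in T lymphocytes (2.71-fold) and *Bcl2l1* in B lymphocytes (2.08-fold). *Mcl1* (1.14-fold) and *Bax* (1.07-fold) were not. With scran size factors the members called were *Bcl2* and *Mcl1*, so that *Mcl1* gained the call and *Bcl2l1* and *Bcl2l11* lost it. The median gene had a fold of 1.39, and 13.7% of genes had a fold at or above that of *Bcl2*, 20.6% at or above that of *Bcl2l1* and 76.2% at or above that of *Mcl1*. The *Bcl2* call held whichever single well was left out, while those of *Bcl2l1* and *Bcl2l11* did not, as described above.

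**Figure D5:**
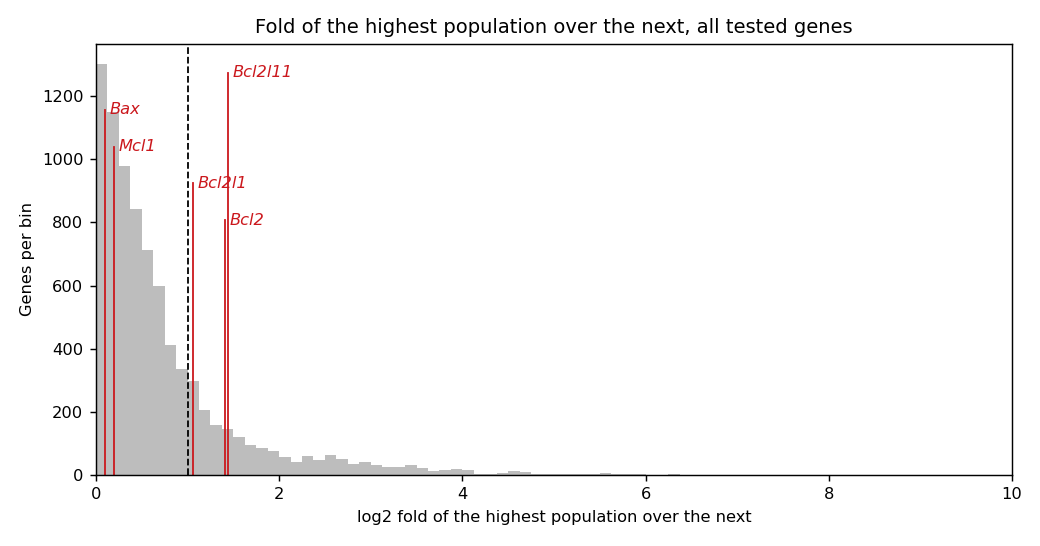
Number of genes by the log2 fold of their highest population over the next, for the 8153 genes with at least 30 UMIs, in equal bins, with 2-fold as a dashed line. *Bax* and *Mcl1* lie in the tallest bins on the left, and *Bcl2l1*, *Bcl2* and *Bcl2l11* to the right of the line, at 2.08, 2.66 and 2.71 as linear folds, among the 22.4% of genes called.

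The wider pathway was followed in 42 genes outside the members, of which 36 have a row and 30 had enough UMIs. By the same rule 4 of these 30 were called, against 22.4% of all genes. Of the caspases and apoptosome genes, which carry out the death programme after the mitochondria open, 0 of 7 were called. The others were 2 of 4 further family members, 1 of 6 inhibitors of apoptosis and their antagonists, 1 of 6 death receptor genes, 0 of 2 mitochondrial channels and 0 of 5 regulators of the family. *Bcl2l13*, a mitochondrial relative of *Bcl2*, was highest in erythroblasts at 112 CPM, 2.13-fold over LSK cells (1.45 to 3.17). An exon of *Bcl2l13* overlaps the member *Bid*, which has no row, on the opposite strand, and the part of *Bid* in its count was not tested. *Tnfrsf1a*, a receptor for tumour necrosis factor, was highest in granulocytes at 171 CPM, 2.46-fold over LSK cells (1.71 to 3.55), and was at 0 UMIs in erythroblasts. Both remaining calls were in B lymphocytes, came from under 100 UMIs and are named only because their count is small: the BH3-only gene *Bmf* (18 UMIs, 133 CPM, 5.31-fold over T lymphocytes, 1.90 to 18.3) and *Birc3*, an inhibitor of apoptosis (23 UMIs, 169 CPM, 2.12-fold over T lymphocytes, 1.07 to 4.30).

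Index fluorescence allowed wells of 1 population to be split at the median of a surface marker or of forward scatter. Among T lymphocytes, the CD3-low wells (22 wells, 51 UMIs, 482 CPM) held more *Bcl2* than the CD3-high wells (21 wells, 25 UMIs, 264 CPM), a ratio of high to low of 0.548 (0.326 to 0.902). Of the 5 wells rich in *Bcl2*, O21, P6 and O17, with 12, 8 and 7 UMIs, were on the low side of the median of 10475, so few wells carry this difference too. *Mcl1* in the same split had a ratio of 1.24 (0.775 to 1.99). *Bcl2l1* in CD44-high over CD44-low erythroblasts was at 0.477 (0.221 to 1.003). The splits of LSK cells by forward scatter, Sca-1 and c-Kit, of granulocytes by Gr1 and of B lymphocytes by forward scatter gave intervals that include 1 for each member with at least 30 UMIs.

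Of 3905 other genes with at least 100 UMIs, those whose levels followed *Bcl2* most closely over the 5 populations were *Dnah8*, *Plgrkt* and *Dock10*. Their root mean square differences were 0.23, 0.35 and 0.35 in centred log2(CPM + 10). *Dock10* was at 394 CPM in T lymphocytes, 240 in LSK cells, 140 in B lymphocytes, 66.9 in granulocytes and 7.50 in erythroblasts. Among the genes closest to *Mcl1* were *Abi1* and *Gm17087*, at 0.17 and 0.21. *Abi1*, which encodes a regulator of the actin cytoskeleton, was at 169 CPM in B lymphocytes, 164 in granulocytes, 129.7 in T lymphocytes, 81.5 in LSK cells and 40.5 in erythroblasts. With 5 populations that share 1 plate, this likeness is a description of levels only.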

How the data were processed

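The values are counts of UMIs for each gene in each well, which the authors deposited as whole numbers without normalization. They were made with *scPipe*, which aligns reads, assigns them to exons, sorts them by the designed well barcode and collapses UMIs. Which build, annotation and strand setting they used is not given in the sources used here, and the labels are contradictory on the layout of read 1. A column's well name tied it to its sample, and 9 columns without a sample were left out. Symbols came from GENCODE M21 (19755 IDs matched, 74 without a symbol). ERCC rows (6.76% of UMIs) stayed out of totals. No cell was removed, and no doublet caller was run on index-sorted single cells.

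Counts were summed per population and divided by the UMIs on mouse genes (CPM), with sums under 3 UMIs set to 3 for calls. Intervals are exact (Poisson, binomial, conditional binomial), at 95%, and those for sums and ratios were tested on simulated Poisson counts only. The simulation held no extra spread between wells. It therefore says nothing on the intervals of unevenly spread counts, such as *Bcl2* and *Bcl2l11* in T lymphocytes. Populations are single samples, so no test was run. Named genes are the 10 members, pathway genes called with at least 100 UMIs, and the 3 genes most like each member of at least 100 UMIs, 1 of which is not reported here. *Bmf* and *Birc3* fall outside this rule and were named after their values were seen. The members and lists were chosen with earlier results of these data known. Python 3.11.15 (numpy 2.4.6, pandas 2.3.3, scipy 1.17.1, matplotlib 3.10.9) and R 4.3.3 (edgeR 4.0.16, DESeq2 1.42.0 and scran 1.30.0, for scaling factors only) were used. Sequences and coordinates are those of GENCODE M21 (GRCm38).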

Additional observations from a re-analysis of the deposited data

How the results depend on the processing

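The 3 members called highest over the next population became 1 (*Bcl2*) with TMM factors, with DESeq2 size factors, as a mean over wells of the CPM per well, and with at least 100 UMIs, and 0 per ERCC UMI or with a 3-fold threshold. Leaving out single wells, a choice made after seeing the data, gave 1 to 3. The 1828 genes called highest became 3384 at 1.5-fold, 943 at 3-fold, 3201 per ERCC UMI and 954 with at least 100 UMIs, and the 9 member calls against LSK cells became 4 at 3-fold. Per ERCC UMI there were 8 such calls, but not the same ones. Lost were *Bcl2* in T lymphocytes, *Bcl2l1* in B lymphocytes and *Mcl1* in B lymphocytes, T lymphocytes and granulocytes. Gained, all as lower, were *Bax* in B lymphocytes, granulocytes and erythroblasts and *Bcl2* in B lymphocytes. Of 45 alternative values of the members' log2 fold of highest over next, 39 stayed within the counting interval of the CPM value, among them *Bax* in T lymphocytes over LSK cells, whose sign turned per ERCC UMI (-0.79). Another 4 moved further: *Mcl1* in granulocytes over B lymphocytes, 0.19 in CPM, to 0.86 (TMM), 0.80 (DESeq2) and 1.06 (scran, which gave it the call), and *Bcl2* in T lymphocytes over LSK cells from 1.41 to 0.52 per ERCC UMI. The 2 called values that turned were *Bcl2l1* in B lymphocytes over erythroblasts per ERCC UMI (-0.15) and with scran factors (-0.97). Over genes with at least 30 UMIs in the 5 sums, a wider set than the one tested against LSK cells, scaling moved the median log2 ratio to LSK cells, in erythroblasts from -0.97 in CPM to -0.10 with TMM factors and -1.08 per ERCC UMI, and the cause was not tested. Depth limits *Bax*, *Bcl2l1* and *Bcl2l11*, with 74 to 81 UMIs in all, and the *Bcl2a1* genes, with 3 to 7 each. No paired analysis was possible because the results come from no test.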
